A study of Mus musculus with 6 samples.

Results

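The Sox genes encode transcription factors with an HMG-box DNA-binding domain. Of the 19 genes with a Sox symbol among the 32285 mouse genes of the count matrices, 9 were followed here: Sox2, Sox4, Sox5, Sox6, Sox8, Sox9, Sox10, Sox11 and Sox13. They were picked by name with earlier results of these data known, so they are not a neutral sample of the Sox genes. Their RNA and the accessibility of their promoters were read per cell class in nuclei of mouse brain tissue with tumors or lesions, and tumor glia were set beside host glia. The assay was 10x Multiome, which reads RNA and open chromatin (ATAC-seq) from the same nucleus.

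All tissue came from C57BL/6J mice that received plasmids by in utero electroporation, which delivers DNA into the cells lining the ventricles of the embryonic brain, here at the ganglionic eminences. Every library carried Foxr2 overexpression from a piggyBac vector with the ubiquitous CAG promoter, together with GFP and Akaluc reporters, so no untreated brain was among the samples. The group Foxr2 p53LOF (Foxr2 overexpression and p53 LoF, the latter by a CRISPR guide with Cas9) had 1 library with counts, and so did Foxr2 alone. The study reports aggressive tumors for Foxr2 p53LOF and nonproliferative lesions for Foxr2 alone. The labels gave neither the age nor the number of animals. A second Foxr2 alone library entered by its barcodes and peaks only. Because counts of 1 library per genotype were analysed, differences are between nuclei of these libraries and no test was made. Genotype and library cannot be told apart.

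SOX proteins bend DNA at short AT-rich motifs and act with partner factors. In the brain, the SoxB1 member Sox2 is known for neural stem and progenitor cells, the SoxC members Sox4 and Sox11 for immature neurons and progenitors, and the SoxD members Sox5, Sox6 and Sox13 for holding oligodendrocyte precursors back from differentiation. The SoxE members split between glia, with Sox9 in astrocytes and early glial progenitors and Sox8 and Sox10 in the oligodendrocyte lineage, where Sox10 switches on myelin genes.

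Nuclei were clustered without any Sox gene and the clusters were named from marker genes, none of them a Sox gene. A cluster was called tumor where at least 5% of its nuclei had ATAC counts on a vector sequence and this share was at least 5 times that of the immune-like nuclei of the library, and host where it was at most 3 times that share. In Foxr2 p53LOF, 476 tumor astrocyte-like nuclei (33.2% with a vector count), 699 tumor nuclei like oligodendrocyte precursor cells (OPC-like, 29.0%) and 843 like committed oligodendrocyte precursors (COP-like, 28.6%) were found. The host classes held 68 astrocyte-like (1.47%), 83 OPC-like (1.20%) and 1525 oligodendrocyte-like nuclei (0.787%), and the immune-like nuclei, 1819 in number, had 2.64%. A cluster took the name of the list with the highest median log2 level over a low base (the first quartile of clusters), and in the tumor several names were close. The largest OPC-like cluster stood at 3.80 for OPC and 3.30 for astrocyte markers, and the largest COP-like cluster at 2.92 for COP and 2.71 for OPC markers. By summed CPM (UMIs per 1000000 UMIs of the class), tumor COP-like nuclei held more of the oligodendrocyte list (4980 CPM) than of the COP list (3436 CPM). Within the COP list, Gpr17 read 16.1 CPM in tumor COP-like against 116 CPM in host OPC-like nuclei, and Enpp6 355 against 0 CPM. COP-like nuclei that were neither tumor nor host by vector share read more of both, 166 CPM of Gpr17 and 1428 CPM of Enpp6. Tumor OPC-like and astrocyte-like nuclei were weaker in defining markers than host glia. The OPC marker list summed to 5739 CPM in tumor OPC-like nuclei against 14090 CPM in host OPC-like nuclei, with Cspg4 at 8.26 against 592 CPM, and the astrocyte list summed to 4440 CPM in tumor against 10666 CPM in host astrocyte-like nuclei. Tumor OPC-like nuclei also carried 1773 CPM of the astrocyte list, beside 1611 CPM in host OPC-like nuclei. Within that list, Slc1a3 read 1094 against 184 CPM, Aqp4 119 against 25.3 CPM and Gja1 1.98 against 3.61 CPM. The OPC list summed to 3744 CPM in tumor astrocyte-like and 1410 CPM in tumor COP-like nuclei. Its member Pdgfra did not set the tumor classes apart, at 157 CPM in OPC-like, 170 CPM in astrocyte-like and 156 CPM in COP-like nuclei. Another member, Olig2, was highest in OPC-like nuclei at 71.1 CPM, against 20.4 CPM in astrocyte-like and 33.6 CPM in COP-like nuclei. Host OPC-like nuclei read 191 CPM of Olig2. The OPC-like name is thus a label of the closest list. Immune markers summed to between 47.9 and 205 CPM over these tumor and host classes, against 3987 CPM among the immune-like ones. No vector peak was called in Foxr2 alone replicate 1, the library with counts, so its 396 astrocyte-like, 170 OPC-like and 3023 oligodendrocyte-like nuclei could not be sorted into tumor and host and are called glia of Foxr2 alone. GFP, which the vectors carry, stood at 83.4 CPM in those glia. In Foxr2 p53LOF it stood at 485 to 741 CPM in the tumor classes, at 181 to 272 CPM in the host classes and at 245 CPM in the immune-like class. Foxr2 itself, whose endogenous and vector copies were not told apart, stood at 79.3 CPM in tumor glia, 28.2 CPM in host glia and 8.87 CPM in glia of Foxr2 alone.

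The kept nuclei numbered 8413 with a median of 5578 UMIs (unique molecular identifiers, 1 per captured RNA molecule) in Foxr2 p53LOF and 8327 with a median of 3632 UMIs in Foxr2 alone. Within Foxr2 p53LOF, tumor nuclei were deeper, with medians of 7500 to 9555 UMIs in the 3 tumor classes against 2448 to 3226 UMIs in the host classes. Between 19 and 140 cell barcodes were shared by pairs of the 3 libraries. Values below are CPM of the summed UMIs of a class, with exact Poisson intervals at 95% in parentheses, and log2 ratios with exact conditional binomial intervals. These intervals cover counting error only. A member was called higher or lower where it differed at least 2-fold, its interval lay on that side of a ratio of 1, and 1 class had at least 10 CPM. Against a class with 0 UMIs the ratio was set against a floor of 3 counts and is a lower bound. Immune-like nuclei, most of whose Sox RNA should come from other cells, serve as a background reference of this library, to which free RNA and mixed nuclei could both add. The share with a vector count was 2.64% in immune-like, 0.787% in host oligodendrocyte-like and 0.66% in neuron-like nuclei. An immune-like level need not be the background of another class. The Sox5 and Sox6 UMIs of immune-like nuclei fell in the same nuclei more often (6.10%) than the product of the single shares (1.68%). Whether free RNA or mixed nuclei gave them was not tested. For Sox4 they may not be a plain background. Immune-like nuclei of Foxr2 alone read 57.2 CPM of it, from only 6 UMIs. An unnamed cluster of 364 nuclei of Foxr2 alone, highest in immune markers, read 48.3 CPM (29.9 to 73.8) of Sox4 from 21 UMIs. In that library astrocyte-like nuclei read 79.9 CPM, OPC-like 51.7 CPM, neuron-like 17.9 CPM and oligodendrocyte-like 11.95 CPM. Whether the Sox4 RNA of immune-like nuclei was their own or came from other cells was not tested.

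**Figure D1:**
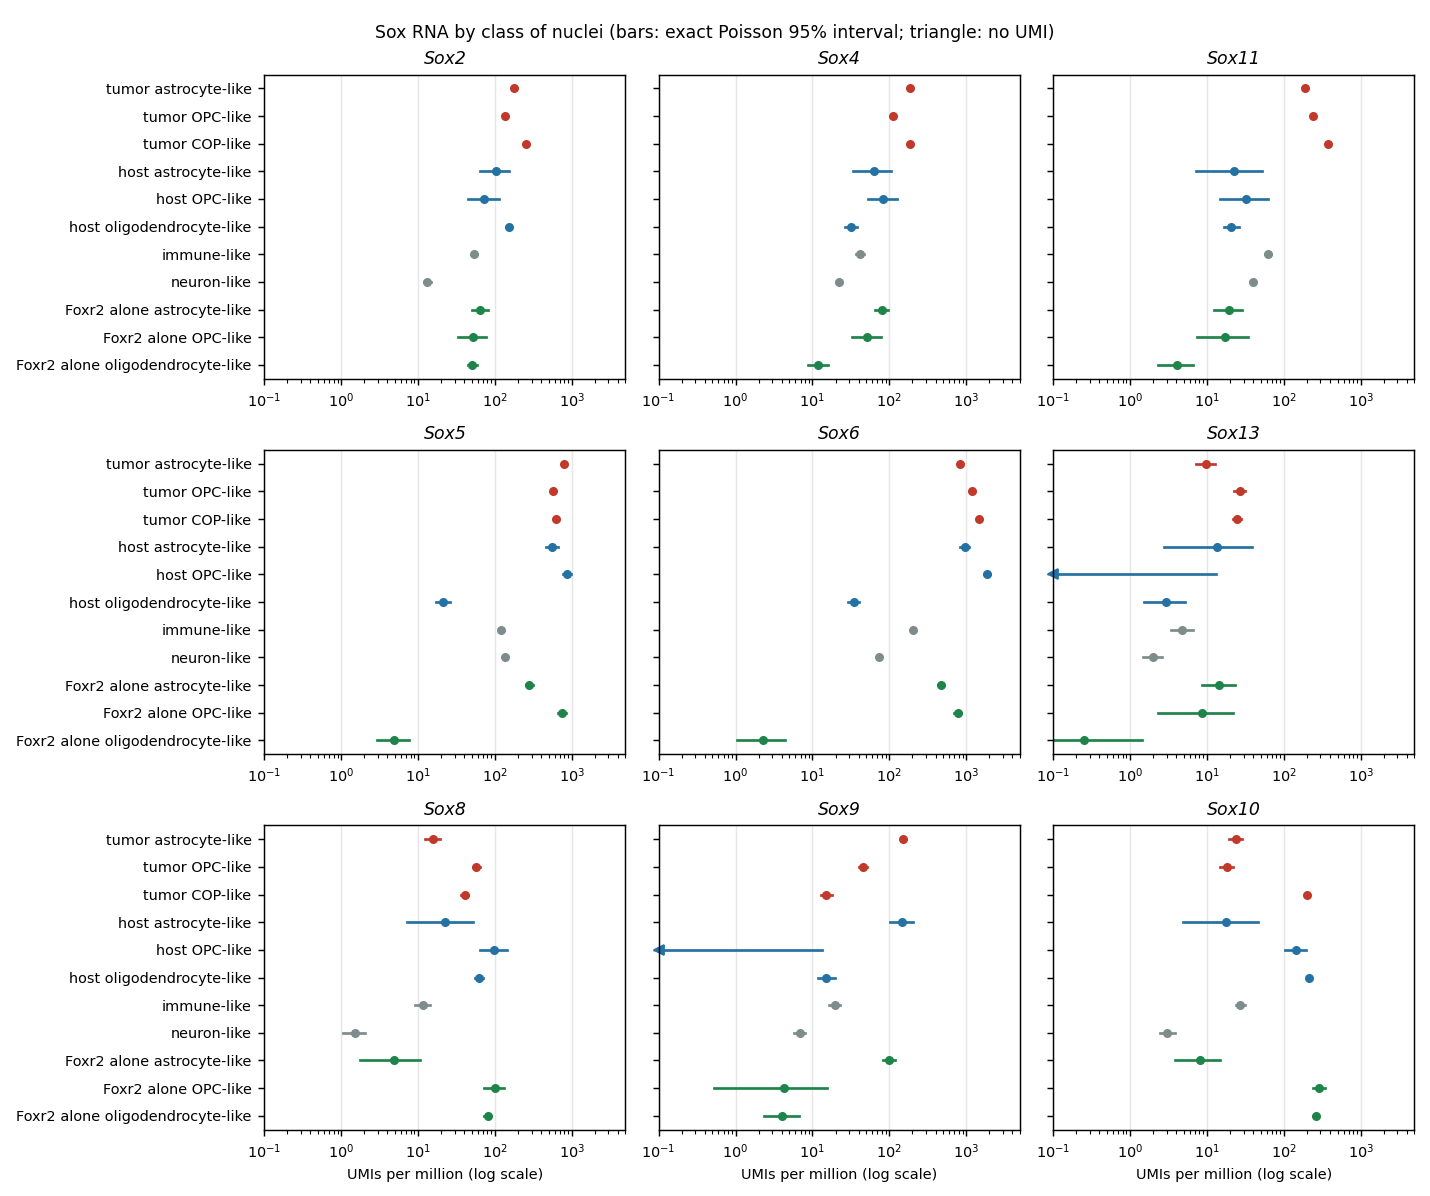
RNA level of the 9 Sox genes (panels) in the tumor, host and other classes of Foxr2 p53LOF and in the glia of Foxr2 alone, as CPM on a log axis with exact Poisson intervals at 95% as bars. Sox11 sits at 191 to 377 CPM in the 3 tumor classes and at 20.9 to 32.5 CPM in the host classes, while Sox9 and Sox10 change places between tumor astrocyte-like and tumor COP-like nuclei.

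Each tumor class was set beside 1 host class. Between 2 and 5 of the 9 members were called, and at most 1 of them was lower in the tumor. No host COP-like class was found, so tumor COP-like nuclei were set beside host OPC-like nuclei, which differ in stage. The oligodendrocyte list summed to 4980 CPM in tumor COP-like, 708 CPM in host OPC-like and 20267 CPM in host oligodendrocyte-like nuclei. The OPC list summed to 1410, 14090 and 213 CPM in the same order. No ratio of tumor COP-like to host oligodendrocyte-like nuclei was taken. Tumor and stage cannot be told apart for COP-like nuclei. Nor can they for OPC-like nuclei, since tumor OPC-like nuclei were low in precursor markers as given above. The same holds for astrocyte-like nuclei, whose astrocyte list summed to 4440 CPM in the tumor against 10666 CPM in the host. In that list Gja1 read 26.0 against 699 CPM, Aqp4 539 against 815 CPM and Slc1a3 1955 against 2057 CPM. The OPC marker Pdgfra read 170 CPM in tumor against 31.2 CPM in host astrocyte-like nuclei. In astrocyte-like nuclei, 2 of the 9 members, Sox4 and Sox11, were called higher and 0 lower, where 12.4% of the genes tested were called higher and 12.1% lower. The members had a median log2 ratio of 0.41, and all tested genes of 0.11. Tumor COP-like nuclei against host OPC-like nuclei had 4 members higher (Sox2, Sox4, Sox11 and Sox13) and 1 lower (Sox8), beside 18.4% and 13.9% of all tested genes. Tumor OPC-like nuclei against the same host nuclei had 3 higher (Sox9, Sox11 and Sox13) and 1 lower (Sox10), beside 16.4% and 14.3%. With both tumor precursor classes summed, the counts were 4 higher (Sox2, Sox9, Sox11 and Sox13) and 1 lower (Sox8), beside 17.6% and 12.5%. The median log2 ratio of the members was then 0.92, beside 0.34 for all tested genes, with lower bounds included. Without genes at 0 UMIs in a class it was -0.17 beside 0.33. These pairs were 0.41 beside 0.25 and -0.62 beside 0.23 in tumor OPC-like nuclei, and 0.49 beside 0.34 and 0.46 beside 0.33 in tumor COP-like nuclei. Tumor nuclei yielded more UMIs than host nuclei (a mean of 10186 against 3304 per nucleus for astrocyte-like and 10098 against 3336 for precursor-like nuclei), so that counting UMIs per nucleus in place of CPM added 1.62 and 1.60 to every log2 ratio of these 2 comparisons. On that scale Sox6, Sox8 and Sox13 in astrocyte-like nuclei and Sox5, Sox6, Sox8 and Sox10 in precursor-like nuclei turned from below to above the host, while Sox10 in tumor OPC-like nuclei stayed below it at -1.63. Directions given below are relative to the total RNA of a class.

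Sox2, the SoxB1 factor of neural stem cells, lies at chr3:34650405-34652461 (GRCm38, plus strand) inside the same-strand noncoding gene Sox2ot. Its level was 179 CPM (167 to 191) in tumor astrocyte-like, 136 CPM (127 to 146) in tumor OPC-like and 250 CPM (240 to 261) in tumor COP-like nuclei. Host classes read 102 CPM (64.9 to 154) in astrocyte-like, 72.2 CPM (44.1 to 112) in OPC-like and 151 CPM (139 to 163) in oligodendrocyte-like nuclei. The order was therefore tumor COP-like, tumor astrocyte-like, host oligodendrocyte-like, tumor OPC-like and the 2 small host classes, and the intervals of the last 4 overlapped except that host OPC-like nuclei lay below host oligodendrocyte-like and tumor OPC-like nuclei. Sox2 was called higher in tumor COP-like than in host OPC-like nuclei, by 1.79 (1.16 to 2.51) on the log2 scale. The 76 COP-like nuclei that were neither tumor nor host by their vector share read 318 CPM (271 to 371), above the tumor COP-like nuclei. In tumor OPC-like nuclei the ratio to the same host nuclei was 0.91 (0.28 to 1.63), and in astrocyte-like nuclei it was 0.81 (0.21 to 1.47), neither of which reached 2-fold. Immune-like nuclei read 53.8 CPM, close to the host OPC-like value, and neuron-like nuclei read 13.2 CPM. Since Sox2ot lies on the same strand, its reads (1390 CPM in tumor glia, 1294 CPM in host glia) may be shared with Sox2.

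Of the SoxC factors, Sox11 was called higher in all 3 tumor classes and Sox4 in 2, unevenly among clusters. Sox11, at chr12:27334264-27342574 (minus strand) and known from immature neurons, read 191 CPM (179 to 203) in tumor astrocyte-like, 237 CPM (225 to 249) in tumor OPC-like and 377 CPM (365 to 389) in tumor COP-like nuclei. Every tumor class lay above every host class, none of which passed 32.5 CPM. The host values rested on 5 UMIs in astrocyte-like, 9 in OPC-like and 85 in oligodendrocyte-like nuclei, and the immune-like nuclei read 63.3 CPM, above all of them. Of the nuclei that were neither tumor nor host, the COP-like read 27.7 CPM (15.1 to 46.4) and the astrocyte-like 155 CPM (115 to 204). The log2 ratios were 3.10 (1.87 to 4.73) in astrocyte-like nuclei, an 8.57-fold difference, 2.86 (1.93 to 3.996) for tumor OPC-like and 3.54 (2.61 to 4.67) for tumor COP-like nuclei. Neuron-like nuclei read 39.3 CPM. Within the tumor astrocyte-like class, a cluster of 119 nuclei read 48.1 CPM, under the immune-like value, while clusters of 33 and 27 nuclei at 360 and 524 CPM gave 203 and 107 of the 925 UMIs. OPC-like clusters read 180 to 284 CPM and COP-like clusters 201 to 573 CPM. Sox11 was found in 14.9% of tumor astrocyte-like, 20.2% of tumor OPC-like and 28.0% of tumor COP-like nuclei once each nucleus was thinned to 1000 UMIs, against 1.47% and 3.61% in the host astrocyte-like and OPC-like nuclei and 4.03% in immune-like nuclei.

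Sox4, at chr13:28948919-28953713 (minus strand, with Gm26735 on the other strand), shares targets with Sox11. Its levels were 187 CPM (175 to 200), 110 CPM (102 to 119) and 188 CPM (179 to 197) in tumor astrocyte-like, OPC-like and COP-like nuclei. Host astrocyte-like nuclei had 62.3 CPM (34.1 to 105) from 14 UMIs, host OPC-like nuclei 83.1 CPM (52.7 to 125) and host oligodendrocyte-like nuclei 32.2 CPM (26.9 to 38.2). The tumor was called higher in astrocyte-like nuclei by 1.59 (0.83 to 2.46), which is 3.00-fold, and in COP-like nuclei, against host OPC-like nuclei, by 1.18 (0.59 to 1.84). The COP-like nuclei that were neither tumor nor host read 192 CPM (155 to 234), overlapping the tumor COP-like value. By median-of-ratios scaling, which centres the ratios on the median gene, the COP-like ratio was 0.86, under 2-fold. The lowest clusters of the tumor astrocyte-like and OPC-like classes read 62.9 and 59.4 CPM, near the host values. Tumor OPC-like nuclei did not differ from host OPC-like nuclei beyond counting error, at 0.41 (-0.19 to 1.08).

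The SoxD factors Sox5 and Sox6 had the highest CPM of the members in every tumor class, and they were abundant in host astrocyte-like and OPC-like nuclei too. Sox5 (chr6:143828425-144781977, minus strand) and Sox6 (chr7:115470872-116038796, minus strand) restrain oligodendrocyte differentiation, and both are long genes that overlap other annotated transcripts. Sox6 read 824 CPM (799 to 850) in tumor astrocyte-like, 1187 CPM in tumor OPC-like and 1480 CPM in tumor COP-like nuclei, against 953 CPM in host astrocyte-like and 1849 CPM in host OPC-like nuclei. Among these tumor and host classes the host OPC-like nuclei were the highest. The COP-like nuclei that were neither tumor nor host read more, 3750 CPM (3583 to 3922). The log2 ratio of tumor to host OPC-like nuclei was -0.64 (-0.77 to -0.51) for OPC-like and -0.32 (-0.45 to -0.19) for COP-like nuclei. Both were below the host beyond counting error but within 2-fold. Sox5 was highest in host OPC-like nuclei too but was highest among the tumor classes in astrocyte-like nuclei, at 797 CPM (772 to 822). Tumor OPC-like nuclei read 565 CPM (546 to 584) and tumor COP-like nuclei 616 CPM (600 to 632), against 870 CPM (764 to 988) in host OPC-like nuclei. In astrocyte-like nuclei Sox5 was above the host at 0.52 (0.26 to 0.79) and Sox6 below it at -0.21 (-0.41 to -0.00), both within 2-fold. Host oligodendrocyte-like nuclei read 34.4 CPM of Sox6 and 21.1 CPM of Sox5, under the 201 and 119 CPM of immune-like nuclei. The immune-like level is thus no measure of the background of host oligodendrocyte-like nuclei. Whether this RNA was their own was not tested. Sox6 was uneven within the tumor COP-like class, where 72.7% of nuclei had a Sox6 UMI without thinning, against 94.3% of the shallower tumor OPC-like nuclei, and the 5 COP-like clusters ranged from 790.5 to 2621 CPM.

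Sox13, the remaining SoxD member, lies at chr1:133382303-133424377 (minus strand) and was the least abundant member over all tumor glia (21.6 CPM), though not in each class. It read 9.69 CPM (7.12 to 12.9) in tumor astrocyte-like, 26.6 CPM (22.7 to 31.0) in tumor OPC-like and 24.7 CPM (21.6 to 28.1) in tumor COP-like nuclei. Host OPC-like nuclei had 0 UMIs, and against the floor of 3 counts (10.8 CPM) the difference was at least 2.46-fold for tumor OPC-like and at least 2.28-fold for tumor COP-like nuclei. The exact interval of the log2 ratio started at 0.98 and 0.88, just under 2-fold, so these calls rest on the floor. Host astrocyte-like nuclei had 13.4 CPM from 3 UMIs, and immune-like nuclei had 4.81 CPM.

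The SoxE factors divided the named tumor glia. A cluster of 274 nuclei that met the tumor rule but stayed unnamed is outside this split and is described at the end. Sox9 lies at chr11:112782224-112787760 (plus strand), Sox10 at chr15:79154908-79165240 (minus strand) with 2 annotated start sites, and Sox8 at chr17:25565892-25570686 (minus strand). Sequences of 5 regions at Sox9 and Sox10, of which 4 lie in peaks whose accessibility is described, are given here, read from the GRCm38 genome. Each is written 5′ to 3′, in the direction of the gene next to a start site and on the plus strand for peaks, with matches to a SOX motif (ACAAAG or ACAATG) or the ETS motif (CCGGAA) on either strand in capitals. A forkhead motif (TGTTTAC) was searched too and had no match in any of them. The Sox9 promoter and the upstream start site of Sox10 are given as 250 bases before the start site, which for Sox9 end 15 bases before it and include 17 bases of annotated exon, and each peak is shown by the 300 bases that hold the most matches.
Sox9 promoter, chr11:112781960-112782209: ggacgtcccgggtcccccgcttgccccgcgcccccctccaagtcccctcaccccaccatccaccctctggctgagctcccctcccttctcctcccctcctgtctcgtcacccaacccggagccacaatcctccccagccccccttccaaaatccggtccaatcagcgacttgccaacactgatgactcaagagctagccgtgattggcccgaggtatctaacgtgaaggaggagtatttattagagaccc
Sox10 upstream start site, chr15:79165241-79165490: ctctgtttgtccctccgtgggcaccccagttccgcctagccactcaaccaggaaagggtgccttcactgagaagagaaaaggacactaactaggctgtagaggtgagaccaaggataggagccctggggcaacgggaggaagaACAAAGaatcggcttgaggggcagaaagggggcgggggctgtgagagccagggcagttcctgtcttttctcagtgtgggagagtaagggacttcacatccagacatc
Sox10 peak 47777 bases upstream, chr15:79212762-79213061: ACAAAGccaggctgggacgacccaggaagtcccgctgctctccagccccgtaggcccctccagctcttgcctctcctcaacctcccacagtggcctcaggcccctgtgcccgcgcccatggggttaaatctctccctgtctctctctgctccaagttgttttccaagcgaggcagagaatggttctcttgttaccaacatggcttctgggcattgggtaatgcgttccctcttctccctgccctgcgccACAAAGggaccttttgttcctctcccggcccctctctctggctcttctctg
Sox10 peak 37718 bases upstream, chr15:79202808-79203107: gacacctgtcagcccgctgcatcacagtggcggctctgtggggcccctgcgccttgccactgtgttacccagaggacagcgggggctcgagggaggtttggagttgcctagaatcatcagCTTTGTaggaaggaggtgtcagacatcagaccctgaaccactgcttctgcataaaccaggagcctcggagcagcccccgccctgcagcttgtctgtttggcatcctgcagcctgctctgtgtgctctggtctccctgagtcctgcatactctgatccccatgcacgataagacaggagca
Sox9 peak 29304 bases downstream, chr11:112811553-112811852: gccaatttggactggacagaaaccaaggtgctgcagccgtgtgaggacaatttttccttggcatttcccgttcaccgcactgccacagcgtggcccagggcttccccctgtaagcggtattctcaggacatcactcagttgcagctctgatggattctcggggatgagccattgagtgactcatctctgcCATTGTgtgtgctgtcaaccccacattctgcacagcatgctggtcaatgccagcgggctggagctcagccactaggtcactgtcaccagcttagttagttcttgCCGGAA
The Sox9 promoter held none of these motifs, and the upstream start site of Sox10, which no peak covered, held 1 ACAAAG. Over their whole length the Sox10 peaks held 2 and 1 ACAAAG, and the Sox9 peak held 2 ACAATG and 1 CCGGAA. For scale, ACAAAG occurred in 55.1%, ACAATG in 37.1%, TGTTTAC in 11.03% and CCGGAA in 15.8% of all 112883 peaks, which have a median length of 878 bases, and in 20.5%, 14.2%, 3.98% and 11.4% of the 300 bases before annotated start sites. A match describes the letters and is not a bound site.

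Sox9, a factor of astrocytes and early glial progenitors, read 151 CPM (141 to 163) in tumor astrocyte-like nuclei and 147 CPM (101 to 206) in host astrocyte-like nuclei. The log2 ratio was 0.04 (-0.46 to 0.59), no difference beyond counting error. It fell in steps across the tumor, to 46.1 CPM (40.9 to 51.8) in OPC-like and 15.2 CPM (12.9 to 17.9) in COP-like nuclei, the last below the 19.6 CPM of immune-like nuclei. Host OPC-like nuclei had 0 Sox9 UMIs, and against the floor of 3 counts (10.8 CPM) tumor OPC-like nuclei were at least 4.25-fold higher, with an exact interval of the log2 ratio from 1.78. For tumor COP-like nuclei the bound was 1.41-fold, at a level no higher than in immune-like nuclei.

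Sox10, which drives the oligodendrocyte lineage, ran the other way. It read 198 CPM (190 to 208) in tumor COP-like, 18.0 CPM (14.8 to 21.7) in tumor OPC-like and 23.7 CPM (19.6 to 28.5) in tumor astrocyte-like nuclei. Host oligodendrocyte-like nuclei had 213 CPM (199 to 228) and host OPC-like nuclei 144 CPM (103 to 197), while immune-like nuclei had 27.2 CPM. Tumor COP-like nuclei had a log2 ratio of 0.46 (0.01 to 0.95) to host OPC-like nuclei. The COP-like nuclei that were neither tumor nor host read 391 CPM (339 to 450), above the tumor COP-like nuclei. Tumor OPC-like nuclei were 8.02-fold lower than host OPC-like nuclei, at -3.004 (-3.54 to -2.44), and at a level under that of immune-like nuclei. In tumor astrocyte-like nuclei, 68 of the 115 Sox10 UMIs came from a cluster of 33 nuclei that read 121 CPM of Sox10 and 88.7 CPM of Sox9, and the 3 larger clusters read between 2.62 and 25.4 CPM. Within the tumor, COP-like nuclei were above OPC-like nuclei by 3.46 (3.18 to 3.75) in Sox10 and below them by -1.60 (-1.90 to -1.30) in Sox9, the only members called between these classes, where 13.4% of tested genes were called higher and 9.29% lower. Against tumor astrocyte-like nuclei, 3 members were higher in COP-like nuclei (Sox8, Sox10 and Sox13) and 1 lower (Sox9), beside 10.2% and 11.6%, and 2 were higher in OPC-like nuclei (Sox8 and Sox13) and 1 lower (Sox9), beside 5.74% and 9.72%.

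Sox8, a SoxE factor that acts beside Sox10, stood below the host in both precursor classes, as Sox5 and Sox6 did, but was called lower in 1 of them. Tumor OPC-like nuclei read 57.5 CPM (51.6 to 63.9) and tumor COP-like nuclei 40.6 CPM (36.6 to 44.8), against 97.5 CPM (64.3 to 142) in host OPC-like nuclei from 27 UMIs. The log2 ratio was -1.27 (-1.83 to -0.65) for COP-like nuclei, which passed 2-fold, and -0.76 (-1.33 to -0.14) for OPC-like nuclei, which did not, though it did by median-of-ratios scaling (-1.01). Host oligodendrocyte-like nuclei read 61.9 CPM, and tumor astrocyte-like nuclei 15.7 CPM (12.3 to 19.6), close to the 11.6 CPM of immune-like nuclei.

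**Figure D2:**
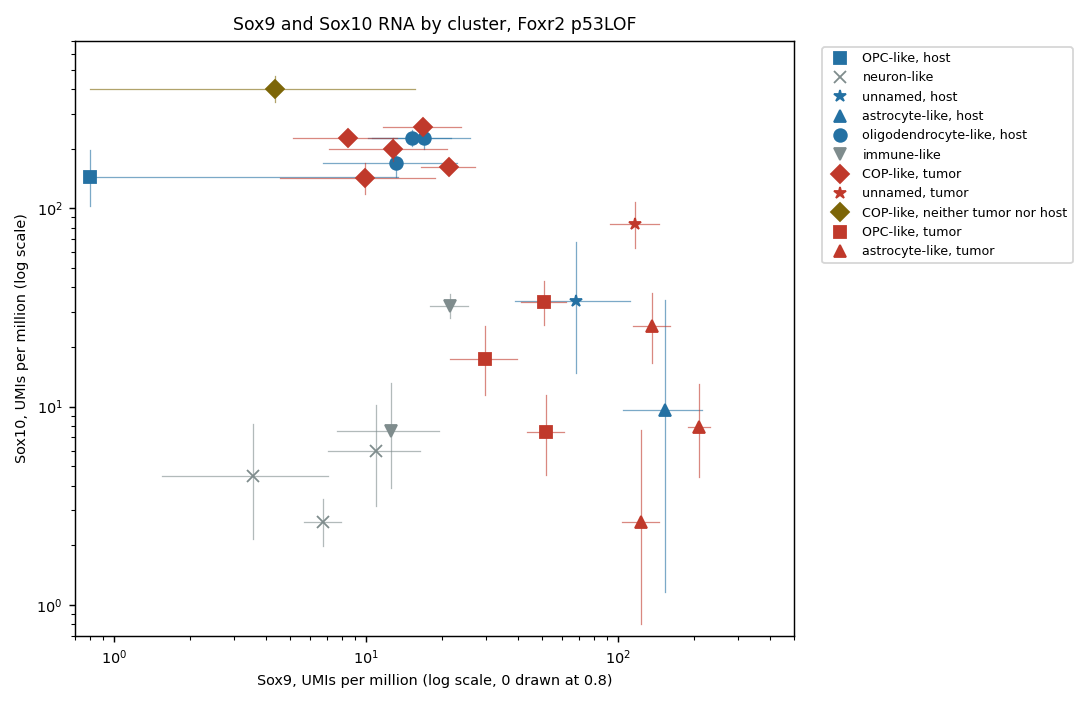
Sox9 against Sox10 RNA (CPM, log axes) in the clusters of Foxr2 p53LOF with at least 50 nuclei, with the class as shape, the status (tumor, host, neither) as colour, exact Poisson intervals at 95% as bars and 0 UMIs drawn at 0.8. The 5 tumor COP-like clusters hold 142 to 256 CPM of Sox10 with at most 21.3 CPM of Sox9, the 3 tumor astrocyte-like clusters hold 123 to 209 CPM of Sox9 with at most 25.4 CPM of Sox10, and the 3 tumor OPC-like clusters hold 29.5 to 51.9 CPM of Sox9 with at most 33.8 CPM of Sox10.

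The split of Sox9 and Sox10 was read cluster by cluster. Over the 11 named tumor clusters with at least 50 nuclei, Sox10 spanned 2.62 to 256 CPM (97.7-fold) and Sox9 8.51 to 209 CPM (24.6-fold), with no overlap between the classes for Sox9. COP-like clusters held 8.51 to 21.3 CPM of Sox9, OPC-like clusters 29.5 to 51.9 CPM and astrocyte-like clusters 123 to 209 CPM. The tumor astrocyte-like clusters under that size differed, with the 33 nuclei named above high in both factors (a cluster at 4.78 for astrocyte and 4.63 for COP markers, with a median of 17724 UMIs) and 27 nuclei at 14.7 CPM of each (3 UMIs). Sox8 spanned 12.3-fold and Sox11 11.9-fold, while Sox4, Sox6, Sox5 and Sox2 spanned 4.07, 3.91, 3.24 and 2.40-fold. Sox13 spanned 7.78-fold. The lowest clusters for Sox8, Sox9, Sox10 and Sox11 (8.94, 8.51, 2.62 and 48.1 CPM) lay under the immune-like level, so these folds are not ranked.

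Because Sox9 and Sox10 mark different glia, their RNA was also looked for in the same nucleus. After thinning each nucleus to 1000 UMIs, 1 of 2035 tumor glia, 0.0491% (exact binomial interval 0.00124 to 0.273%), had UMIs of both, where the product of the single shares was 0.443%. That count is from 1 random draw, and separate draws within the 3 classes gave 1, 1 and 3 nuclei. The number expected over all draws was 2.17 nuclei, 0.107%, against a product of 0.435%. In host oligodendrocyte-like nuclei, Sox9 did not stand above its level in immune-like nuclei. There 3 of 1511 nuclei had both, 0.199% against a product of 0.301%, and 0.272% against 0.279% over all draws. Single shares after thinning were 15.8% for Sox9 in tumor astrocyte-like, 5.01% in tumor OPC-like and 1.79% in tumor COP-like nuclei, the last beside 1.96% in immune-like nuclei. For Sox10 they were 1.47%, 2.15% and 16.4% in the same order, beside 1.57% in immune-like nuclei and 15.7% in host OPC-like nuclei. Without thinning, 112 of 2043 tumor glia (5.48%) had both, against a product of 9.66%. Over all tumor glia the shared nuclei were thus fewer than the product. Without thinning, the interval of the share within each class held the product. The share was 8.19% of tumor astrocyte-like nuclei (5.89 to 11.03%, product 7.63%), 1.57% of tumor OPC-like nuclei (0.788 to 2.80%, product 2.01%) and 6.88% of tumor COP-like nuclei (5.27 to 8.80%, product 7.46%). Unthinned nuclei differ in depth, which adds to the nuclei with both, so these shares do not settle whether the 2 factors are independent within a class. At 1000 UMIs fewer than 2 nuclei a class were expected to have both, 0.160%, 0.0296% and 0.134% against products of 0.215%, 0.0755% and 0.253%. At 2000 UMIs the expected shares were 0.559%, 0.115% and 0.467% against products of 0.748%, 0.253% and 0.818%. At both depths they lay below the product in each class.

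**Figure D3:**
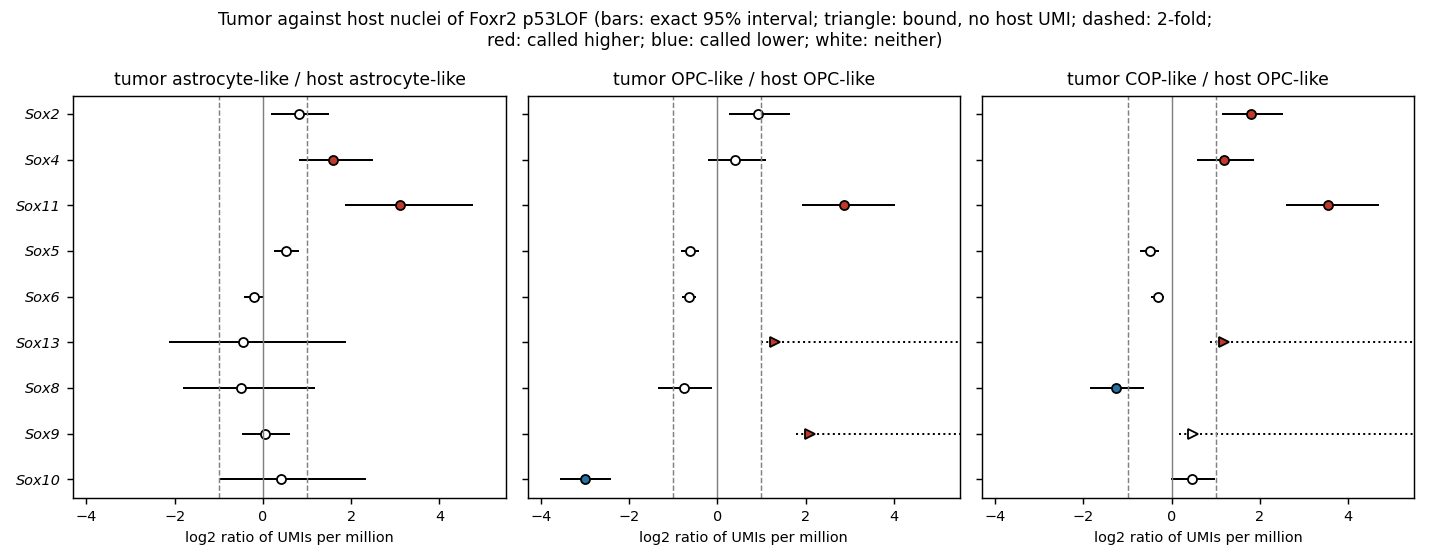
Log2 ratio of CPM, tumor over host, for the 9 members in astrocyte-like, OPC-like and COP-like nuclei of Foxr2 p53LOF (the last 2 against host OPC-like nuclei), with exact conditional binomial intervals at 95% as bars. Red marks members called higher, blue lower and white neither, dashed lines mark 2-fold, and triangles are lower bounds against a host class with 0 UMIs. Sox11 is red in every panel, and Sox10 is blue only in OPC-like nuclei.

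Promoter accessibility was compared over peaks that reach from 1000 bases before to 100 after a start site, as ATAC counts per 1000000 counts in peaks of the class, with a call at 1.5-fold. A promoter peak was called in Foxr2 p53LOF for 8 of the 9 members, all but Sox6. In Foxr2 alone replicate 1 the exception was Sox5, and in Foxr2 alone replicate 2 all 9 had a promoter peak. In astrocyte-like nuclei 0 of 8 promoters were called different, beside 1.93% of genes higher and 7.81% lower. In tumor COP-like against host OPC-like nuclei only Sox8 was called, as lower, beside 2.80% and 11.2%. In tumor OPC-like against host OPC-like nuclei, Sox9 was higher and Sox8 and Sox10 were lower, beside 3.13% and 8.91%. With both tumor precursor classes summed, 1 promoter was higher (Sox9) and 2 were lower (Sox8 and Sox10), beside 2.67% and 10.0%, of which the Sox10 call (-1.04) was lost under 5 alternatives, at -0.42 to -0.95.

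The Sox9 promoter read 55.3 counts per 1000000 in tumor astrocyte-like, 48.8 in tumor OPC-like and 15.7 in tumor COP-like nuclei, against 68.4 in host astrocyte-like and 1.98 in host OPC-like nuclei. Tumor OPC-like nuclei thus had a Sox9 promoter close to that of astrocyte-like nuclei, and host OPC-like nuclei had 1 count. The log2 ratio of tumor to host OPC-like nuclei was 4.63 (1.39 to 14.63), and immune-like nuclei read 5.18. The Sox10 promoter was open in tumor COP-like nuclei (38.4 counts per 1000000), host OPC-like nuclei (51.4) and host oligodendrocyte-like nuclei (64.2), and read 5.79 in tumor OPC-like and 5.78 in tumor astrocyte-like nuclei, under the 7.66 of immune-like nuclei. Its log2 ratio to host OPC-like nuclei was -3.15 (-4.18 to -2.05) for tumor OPC-like and -0.42 (-1.22 to 0.51) for tumor COP-like nuclei. In tumor OPC-like nuclei the promoter and the RNA of Sox10 were both below the host, whereas in tumor COP-like nuclei the interval of the promoter included 0. Within the tumor, the Sox10 promoter was higher in COP-like than in OPC-like nuclei by 2.73, and Sox9 and Sox5 were lower by -1.64 and -1.01, beside 8.83% and 7.65% of genes. Against tumor astrocyte-like nuclei, COP-like nuclei had Sox10 higher by 2.73 and Sox9 lower by -1.82, beside 8.19% and 6.61%, and OPC-like nuclei had 0 promoters called in either direction, beside 4.20% and 3.27%.

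The Sox11 promoter differed less between tumor and host than its RNA did. It read 50.7, 65.7 and 54.5 counts per 1000000 in tumor astrocyte-like, OPC-like and COP-like nuclei and 34.2 and 45.4 in host astrocyte-like and OPC-like nuclei. None of these was called different. The log2 ratio of the promoter was 0.53 (-0.31 to 1.53) in OPC-like and 0.26 (-0.58 to 1.25) in COP-like nuclei, below the intervals of the RNA, and 0.57 (-0.52 to 1.91) in astrocyte-like nuclei, where the intervals touched. Host oligodendrocyte-like nuclei read 6.17. The Sox4 promoter read 46.9, 45.3 and 41.4 counts per 1000000 in the tumor classes against 34.2 and 25.7 in host astrocyte-like and OPC-like nuclei, and its log2 ratios of 0.45 (-0.63 to 1.80), 0.82 (-0.29 to 2.22) and 0.69 (-0.41 to 2.08) could not be told from those of the RNA. Sox2 read between 43.6 and 63.4 in the tumor classes and 70.8 and 53.3 in the same host classes. The Sox8 promoter read 40.4 in tumor OPC-like and 44.4 in tumor COP-like nuclei against 86.9 in host OPC-like nuclei, and was called lower in both, at -1.11 and -0.97.

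**Figure D4:**
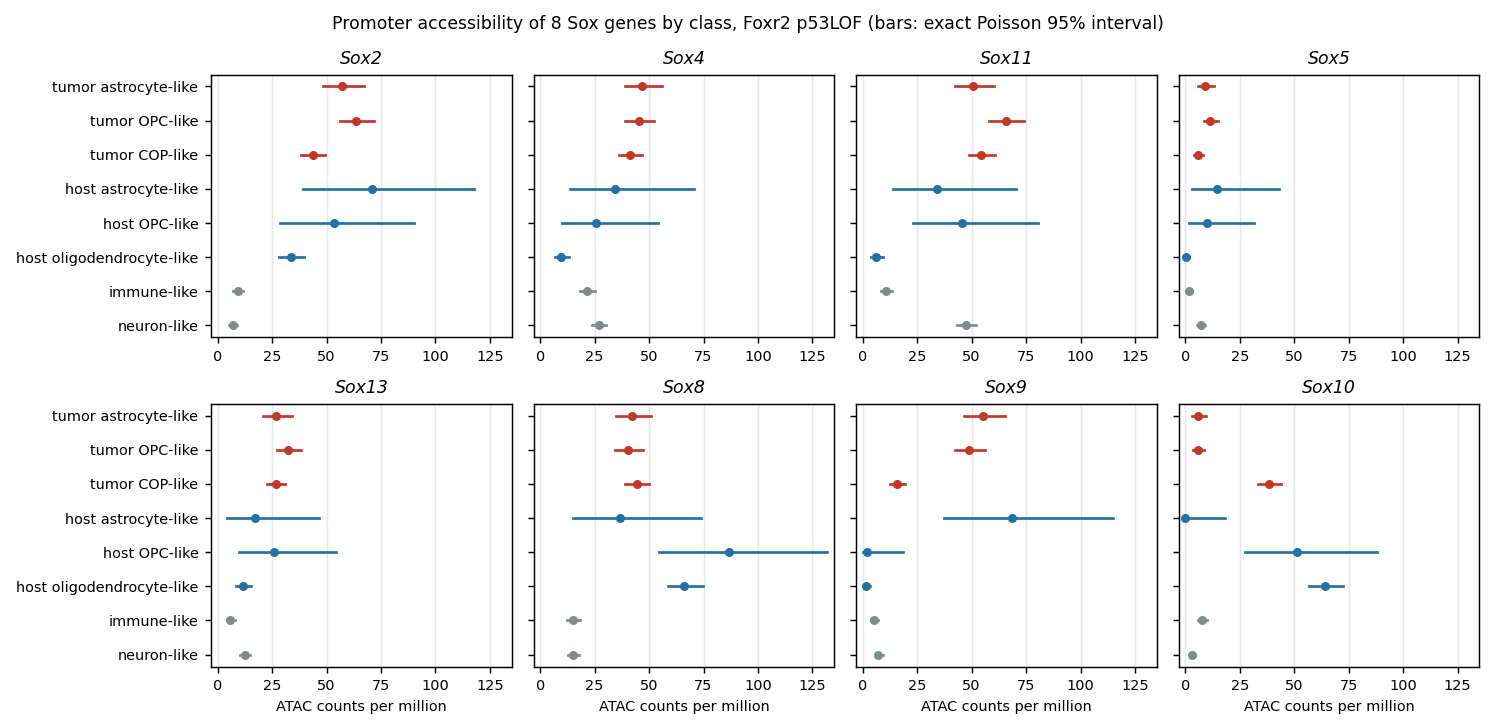
Accessibility of the promoters of the 8 members with a promoter peak in Foxr2 p53LOF, as ATAC counts per 1000000 counts in peaks, by class, with exact Poisson intervals at 95% as bars. The Sox9 promoter is at 48.8 to 55.3 in tumor OPC-like and astrocyte-like nuclei and at 1.98 in host OPC-like nuclei, whereas the Sox10 promoter is at 38.4 in tumor COP-like nuclei and at 5.78 and 5.79 in tumor astrocyte-like and OPC-like nuclei.

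Peaks within 50000 bases of the members were then read in precursor-like nuclei, where 2.19% of the 82341 peaks with at least 50 counts were called at least 2-fold higher in the tumor and 4.88% lower. Around Sox10, 4 of 21 peaks were lower and 0 higher. Around Sox9, 2 of 6 were higher and 0 lower. Sox5 had 4 of 47 lower, Sox6 2 of 31, Sox2 1 of 14 and Sox8 1 of 18, and Sox13 had 1 of 15 higher. In astrocyte-like nuclei, beside 3.67% higher and 7.41% lower, Sox6 had 2 of 11 lower and Sox2 and Sox13 1 each, and no peak of Sox9 or Sox10 was called.

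The Sox10 peak with the lowest ratio, chr15:79212575-79213459, lies 47777 bases before the upstream start site inside the annotated gene Gm10863 and holds the pair of ACAAAG matches printed above. It read 31.2 counts per 1000000 in tumor against 124 in host precursor-like nuclei, a log2 ratio of -1.996 (-2.53 to -1.42). Its level was 47.6 in tumor COP-like nuclei, whose Sox10 RNA was not below the host, 7.96 in tumor OPC-like nuclei and 97.9 in host oligodendrocyte-like nuclei. The next, chr15:79202587-79203329, also inside Gm10863, read 19.96 against 61.2, a log2 ratio of -1.62 (-2.36 to -0.77), and its tumor values were 15.5 in COP-like and 26.3 in OPC-like nuclei, the reverse of the order of Sox10 RNA. The Sox9 peak at chr11:112811099-112811958, in no annotated gene, read 59.6 in tumor astrocyte-like, 57.2 in tumor OPC-like and 22.3 in tumor COP-like nuclei. It read 92.8 in host astrocyte-like nuclei and 3.95 in host precursor-like nuclei (2 counts), and the ratio of tumor to host precursor-like nuclei was 3.22 (0.73 to 8.52).

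**Figure D5:**
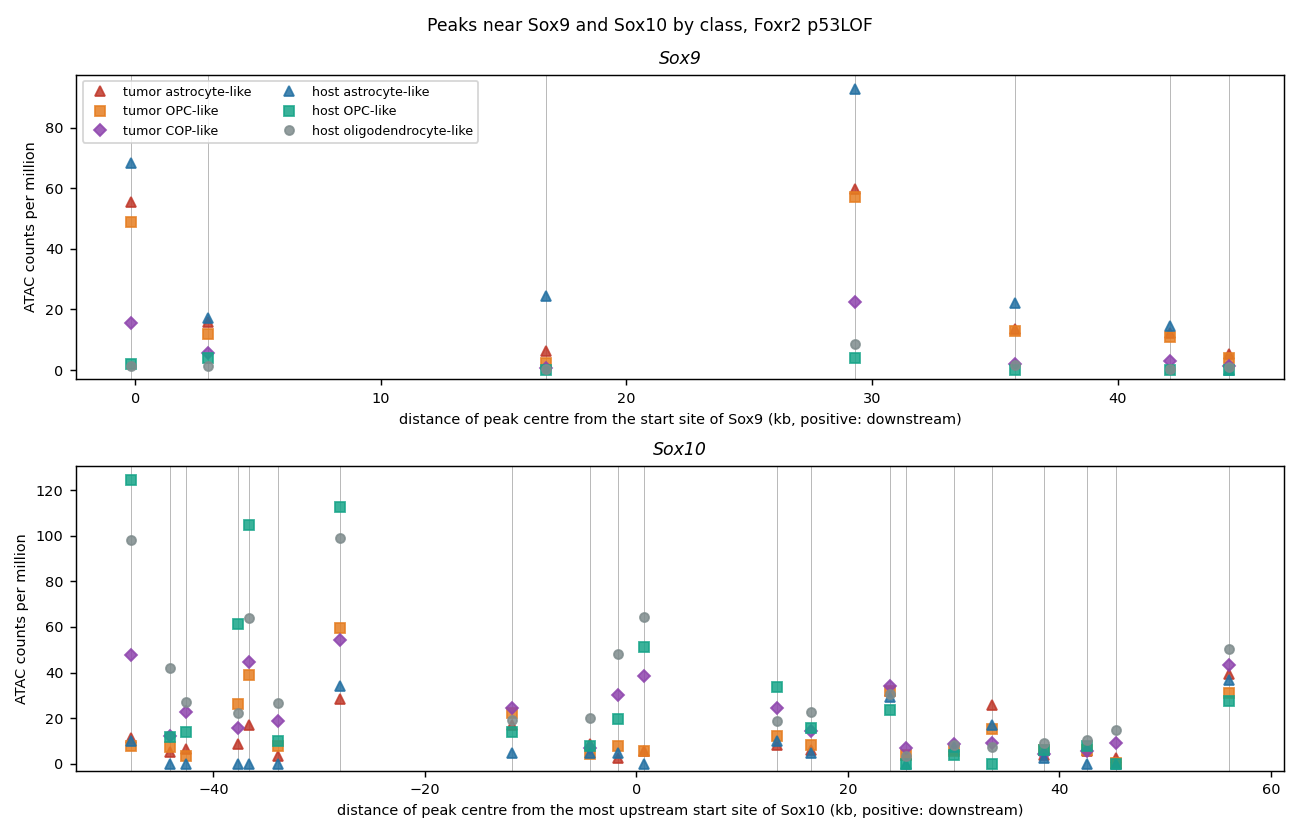
Accessibility of the peaks around Sox9 and Sox10 (ATAC counts per 1000000 counts in peaks) by distance of the peak centre from the start site (kb, upstream negative), with a marker for each of 3 tumor and 3 host classes of Foxr2 p53LOF and no error bars. The Sox10 peak 47777 bases upstream stands at 124 in host OPC-like, 47.6 in tumor COP-like and 7.96 in tumor OPC-like nuclei, and the Sox9 peak 29304 bases downstream at 3.95, 22.3 and 57.2.

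Genes known to act with or under these factors were read in the same comparisons. Of the myelin genes that SoxE factors drive, 7 of 9 tested were higher in tumor COP-like than in host OPC-like nuclei and 0 lower, beside 18.4% and 13.9% of all tested genes, from Mog, a myelin surface protein, at 5.17 and Mbp, myelin basic protein, at 3.44, while Erbb3 (0.73) and Gjb1 (2 host UMIs) were not called. Mog in the host rested on 1 UMI. In tumor OPC-like nuclei, where Sox10 was low, 0 of 7 were higher and 4 lower, beside 16.4% and 14.3%, among them the neuregulin receptor Erbb3 at -3.51 and the myelin regulator Myrf at -2.87. Of the precursor genes, 6 of 8 were lower and 1 higher (Zfp488 at 1.026) in tumor COP-like nuclei, and 8 of 8 were lower in tumor OPC-like nuclei. Gpr17 was lowest in the latter at -6.64, followed by Cspg4 at -6.16. Of the astrocyte and gliogenic factors that stand beside Sox9, 5 of 9 were higher in tumor OPC-like nuclei and 0 lower, with the glutamate transporter Slc1a3 at 2.57 and the transcription factor Nfib at 1.90, whereas tumor COP-like nuclei had 0 of 8 higher and 2 lower, Nfib at -1.61 and Nfix at -1.10. Some of these genes are also markers that named the classes, namely 6 of the 10 myelin genes, 4 of the 8 precursor genes and 2 of the 10 astrocyte factors.

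In astrocyte-like nuclei, where 12.4% of all tested genes were higher and 12.1% lower, 3 of 9 of the astrocyte factors were higher in the tumor, Fabp7 at 1.48, Gfap at 1.45 and Nfib at 1.01, and 0 lower. With so few genes a list, counts of 1 or 2 are near these shares. Of the neural stem cell genes and Sox2 partners, 2 of 8 were higher, the intermediate filament genes Nes at 3.29 and Vim at 1.07, and 1 was lower, the POU factor Pou3f4 at -1.47. Of the SoxC targets and immature neuron genes, 2 of 6 were higher and 1 lower. These were Dcx, which had 0 host UMIs, the tubulin Tubb3 at 1.74 (3 host UMIs) and Tubb2b at -1.05. In tumor COP-like against host OPC-like nuclei, 4 of 6 were higher and 0 lower, with Marcksl1 at 2.39 (4 host UMIs) and Tubb2b at 1.69, while in tumor OPC-like nuclei 0 of 6 were higher and 1 was lower, Stmn2 at -2.13. Sox11 was higher in all 3 comparisons.

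Over all glia without matched classes, 6 of the 9 members were higher in tumor than in host glia of Foxr2 p53LOF and 0 lower, beside 25.1% and 10.9% of tested genes. Sox10, at -0.96, became the 1 lower member by median-of-ratios scaling (-1.21), with only vector nuclei (-1.106) and without cycling nuclei (-1.105). Against all glia of Foxr2 alone, 7 were higher and 1 lower, Sox10 at 103 CPM (98.5 to 107) against 206 CPM (194 to 218), beside 26.4% and 23.0%. That call lay at the 2-fold limit (-1.003) and was lost with a stricter filter on nuclei (-0.37), with doublets kept (-0.98) and with finer clusters (-0.92). Host glia were mostly oligodendrocyte-like (1525 of 1676 nuclei) and tumor glia were not, so this comparison carries the difference between classes: Sox5 and Sox6 stood at 2.70 each there and below the host in the precursor classes. Sox11 stood at 3.73 (3.45 to 4.03). Promoters over all glia gave 5 higher and 2 lower of 8, beside 25.8% and 12.5%.

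The glia of Foxr2 alone gave a second set of values from another library. Sox11 read 19.4 CPM (12.4 to 28.8) in astrocyte-like, 17.2 CPM (7.44 to 33.9) in OPC-like and 4.07 CPM (2.33 to 6.61) in oligodendrocyte-like nuclei, all below every tumor class of Foxr2 p53LOF. Sox10 read 289 CPM (242 to 342) in OPC-like and 259 CPM (243 to 275) in oligodendrocyte-like nuclei and 8.07 CPM in astrocyte-like nuclei, and Sox9 read 99.2 CPM (82.5 to 118) in astrocyte-like, 4.31 CPM (2 UMIs) in OPC-like and 4.07 CPM in oligodendrocyte-like nuclei. In that library the OPC-like nuclei thus had Sox10 without Sox9, and so did the host OPC-like nuclei of Foxr2 p53LOF. Tumor astrocyte-like against these astrocyte-like nuclei had 6 of 9 members higher and 0 lower, beside 23.6% and 27.3%, and tumor OPC-like against their OPC-like nuclei had 5 higher and 1 lower, Sox10 at -4.002 (-4.38 to -3.63), beside 18.9% and 26.0%. Tumor COP-like nuclei had 4 higher and 1 lower, beside 19.3% and 23.2%, and both precursor classes summed had 5 higher and 2 lower, beside 19.2% and 22.8%. Host nuclei of Foxr2 p53LOF and the same class of Foxr2 alone also differed, with Sox6 higher in the host by 1.02 in astrocyte-like, 1.25 in OPC-like and 3.91 in oligodendrocyte-like nuclei. Of the members, 2 of 9 were higher and 0 lower in astrocyte-like nuclei, beside 11.7% and 13.5%, 1 of 7 tested was higher in OPC-like nuclei, beside 5.38% and 11.3%, and 6 of 8 tested were higher in oligodendrocyte-like nuclei, beside 13.2% and 20.6%. Of those 6 (Sox2, Sox4, Sox5, Sox6, Sox9 and Sox11), Sox5, Sox6, Sox9 and Sox11 did not stand above the immune-like nuclei of Foxr2 p53LOF, and Sox2 did. Nor did Sox4, at 32.2 against 41.4 CPM, though immune-like nuclei may not be a plain background for it. The share of background RNA in these differences was not tested.

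The genes whose level most resembled each member over the 14 named classes of both libraries, by Pearson's r of log2(CPM + 1) among 14483 genes, are given as a description, since the classes share libraries. They were Pllp (0.977) and Prkcq (0.973) for Sox10, Glipr2 (0.963) and Fgd6 (0.958) for Sox9 and Gpsm2 (0.938) for Sox8. For Sox11 they were Nsun7 (0.955) and Arntl2 (0.953), for Sox4 Eps8 (0.875), and for Sox2 Kmt5b (0.927) and Nkx2-2 (0.920). For the SoxD members they were Gm3764 (0.955) with Sox5, Glis1 (0.972) with Sox6 and Ccdc14 (0.904) with Sox13.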

How the data were processed

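Single-nucleus libraries from Foxr2 p53LOF and Foxr2 alone brain tissue were analysed as UMI counts per gene and ATAC counts per peak. The deposited counts were made by the authors with Cell Ranger ARC 2.0.0 on mm10 with added vector sequences (per the labels and the study's methods), per library and without normalization. Of Foxr2 alone replicate 2, barcodes and peaks were used and counts were not analysed here. ATAC counts were even in 80.7% and 82.9% of nonzero entries, the pattern of 2 ends per fragment, so ATAC intervals used counts divided by 2.

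The quality limits of the study were applied, except start site enrichment and nucleosome signal. Of 10379 barcodes of Foxr2 p53LOF (96929536 UMIs) 8712 passed, and of 10096 of Foxr2 alone (59719848 UMIs) 8856 passed. Scrublet (scanpy 1.11.5, expected rate 8%) removed 299 and 529 doublets. Nuclei of both libraries were clustered on 2000 variable genes and 30 components (Leiden, leidenalg 0.10.2, resolution 0.5, seed 100), without Sox, listed or vector genes, and glia-like or unnamed clusters were clustered again within a library. Start sites and gene positions came from GENCODE and sequences from the RefSeq GRCm38 genome. Peaks within 50000 bases of a member were listed. Statistics used numpy 2.4.6 and scipy 1.17.1 and were tested on simulated data.

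With counts of 1 library per genotype analysed, no test was run and no p-value is given. Named genes were the 9 members in every class, listed genes with the highest and lowest log2 ratios, Sox genes with at least 10 CPM in a glia class, the most similar genes by correlation, and the extreme peaks of Sox9 and Sox10. The members and lists were chosen with earlier results of these data known. The alternatives were 2 other scalings, other filters and fold limits, doublets kept, only nuclei with vector counts, no cycling nuclei, finer clusters, a wider promoter window, other thinning depths and, added after seeing the data, each tumor precursor class alone.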

Additional observations from a re-analysis of the deposited data

Results flagged for a closer look

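Against the same host OPC-like nuclei, Sox10 RNA stood at 0.46 in tumor COP-like and at -3.004 in tumor OPC-like nuclei on the log2 scale. These opposite directions drew attention, and the difference between them was not tested. A small group of 76 COP-like nuclei of Foxr2 p53LOF was neither tumor nor host by its vector share (10.5%) and read 3750 CPM of Sox6 and 391 CPM of Sox10, against 201 and 27.2 CPM in immune-like nuclei. An unnamed cluster of 274 nuclei of the same library, with a vector share of 23.7%, read 375 CPM of Sox4 and 117 CPM of Sox9, above the immune-like nuclei too. The peak list of Foxr2 alone replicate 2, which entered no comparison of counts, held 1 peak on a vector sequence, and that of replicate 1 held 0.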

How the results depend on the processing

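Counts of members called were within 1.5 times the main count under most alternatives. Counting UMIs per nucleus gave 7 members called in astrocyte-like (2 by CPM) and 8 in precursor-like nuclei (5 by CPM), where 71.7% and 76.5% of all tested genes were higher on that scale, and reversed Sox8 in precursor-like nuclei (0.55) and Sox10 in tumor glia against glia of Foxr2 alone (1.69). By that scaling 96.1% of the genes called in astrocyte-like and 94.6% in precursor-like nuclei were higher in the tumor, against 50.7% and 58.4% by CPM and 46.7% and 39.3% by median-of-ratios scaling. Over all glia these shares were 97.1% per nucleus, 69.8% by CPM and 58.2% by median of ratios. Without cycling nuclei 3 members remained called in precursor-like nuclei, where Sox13 (0.99) and Sox8 (-0.95) fell short of 2-fold. With finer clusters 5 members were higher and 0 lower there, so the Sox8 call was lost. By median-of-ratios scaling 3 were higher and 1 lower. With tumor COP-like nuclei alone, an alternative chosen after seeing the data, 1 promoter was called in place of 3. The share of tumor glia with Sox9 and Sox10 was 0.399% after thinning to 2000 UMIs and 5.48% without thinning. The Sox10 promoter call in precursor-like nuclei, at -1.04, was lost under 5 alternatives, at -0.42 to -0.95. Of 473 values of single members under the alternatives, 419 were counted as unchanged, and the cause was not tested for the others beyond the scaling itself. Unchanged means that a called member kept its call and direction, or that an uncalled member stayed uncalled and inside its main interval. The direction of an uncalled member could change within that interval. Sox9 in astrocyte-like nuclei went from 0.04 by CPM to -0.02 by median of ratios. The host classes of 68 and 83 nuclei limit every matched ratio. No paired analysis was possible because counts of 1 library per genotype were analysed and no test was made. For the same reason no replicate could be left out.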

Other observations

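Of the other 10 Sox genes, Sox1, Sox12 and Sox21 reached 10 CPM in a glia class. Over all glia of Foxr2 p53LOF, Sox12, the remaining SoxC gene, was higher in the tumor by 1.85 and Sox21, a SoxB2 gene, by 1.74 on the log2 scale. In the matched classes neither was called. Sox12 stood at 1.35 in astrocyte-like nuclei, from 1 host UMI, and at -0.53 and -1.09 in tumor COP-like and OPC-like nuclei against host OPC-like nuclei. Sox1 read 9.90 CPM in tumor astrocyte-like and 13.4 CPM (3 UMIs) in host astrocyte-like nuclei. Sox14, Sox15, Sox17 and Sox18, of which the last 2 are known from endothelium, did not pass 0.62 CPM in the tumor classes.

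A cluster of 47 astrocyte-like nuclei of Foxr2 p53LOF that was neither tumor nor host read 278 CPM of Sox9 and 155 CPM of Sox11, and a tumor cluster of 25 oligodendrocyte-like nuclei read 60.1 CPM of both Sox9 and Sox10. Both were too small for a ratio.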
